A study of Oreochromis mossambicus with 6 samples.

Results

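Genes of glucocorticoid and osmotic signalling were followed in the gill of hypophysectomized Mozambique tilapia: fkbp5 (ENSONIG00000004221), sgk1 (ENSONIG00000000452), ostf1 (ENSONIG00000031070), klf9 (ENSONIG00000036140) and errfi1a (ENSONIG00000034028). They are 5 of 32591 genes in the count table, the first 3 taken by identifier and klf9 and errfi1a by symbol, and all 5 passed the filter on low counts. They were chosen because earlier results of these counts showed them lower after prolactin, so their difference between treatments is given as a description, with no test. The fish were male and wild type, and all had lost the pituitary, and with it their own circulating prolactin (Prl) and the pituitary's drive on cortisol release. After 5 days of recovery in water of 12‰, 3 fish received Prl of sheep origin (oPrl) at a dose of 5 μg/g and 3 received saline vehicle, each as 3 intraperitoneal injections 48 h apart. These fish were a subset of those that the study treated. Gill filaments were taken 24 h after the last injection, with 1 library per fish. Neither cortisol nor the activity of its receptor was measured in these libraries, and no group of intact fish was sequenced.

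Cortisol acts through the glucocorticoid receptor, which is held ready for the hormone by Hsp90 and a set of co-chaperones and which, once bound, binds DNA and changes transcription. In teleosts cortisol promotes the salt-secreting ionocytes of the seawater gill, whereas Prl promotes ion uptake in fresh water. Fkbp5 is an Hsp90 co-chaperone that lowers the receptor's affinity for hormone, and its gene is a classical receptor target in mammals. Ostf1 is the tilapia osmotic stress transcription factor, annotated as TSC22 domain family 3, whose mammalian counterpart is the glucocorticoid-induced leucine zipper. Sgk1 is a kinase that acts on ion channels and transporters. Klf9 is a zinc finger transcription factor and Errfi1 an inhibitor of the epidermal growth factor receptor, and both genes are glucocorticoid targets in mammals.

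The libraries held 30516271 to 32959492 counts on genes with oPrl and 21643589 to 35976655 with vehicle. Levels are given as CPM, that is counts scaled to the library total with TMM factors from edgeR, which compares a gene between libraries but not one gene with another. Epithelial markers of the gill were present, with epcam at 1318 to 1744 CPM in oPrl libraries and 1611 to 2371 CPM in vehicle libraries. Libraries of whole filaments mix cell types, and fewer cells of a type cannot be told apart from less RNA per cell.

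The largest difference was in fkbp5. Its level was 34.2, 130.3 and 34.3 CPM in oPrl replicates 1, 2 and 3, against 2032, 1739 and 2943 CPM in vehicle replicates 1, 2 and 3. Replicates 1 and 3 of the oPrl group were nearly equal, replicate 2 was 3.8 times as high, and even that fish lay far below every vehicle fish. The mean level was 66.2 ± 55.5 CPM in oPrl fish, compared with 2238 ± 628 CPM in vehicle fish (SD, n = 3 each), or -5.08 on the log2 scale (standard error, SE, 0.63). The transcript took 0.209% of all gene counts in vehicle fish and 0.0068% in oPrl fish. Its lowest count was 1155, in oPrl replicate 1, so its counts per library were never small.

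Next came the transcription regulators klf9 and ostf1, with almost the same mean difference and opposite spreads. The level of klf9 was 4.61, 14.9 and 2.60 CPM in oPrl replicates 1, 2 and 3, against 106, 104 and 141 CPM in the vehicle fish. Its oPrl fish differed by 5.72-fold among themselves, with replicate 2 highest and replicate 3 lowest. Replicate 3 rested on 92 counts, for which the exact Poisson interval at 95%, of counting error alone, reached from 2.10 to 3.19 CPM. Over all fish the log2 fold change of klf9 was -3.99 (SE 0.63). For ostf1 the oPrl fish had 90.9, 109.7 and 98.3 CPM, against 1378, 1077 and 2139.8 CPM in the vehicle fish. Here the oPrl group was the tight one, with a 1.21-fold range, compared with 1.99-fold in the vehicle group. Over all fish the log2 fold change of ostf1 was -3.94 (SE 0.28).

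The kinase gene sgk1 and the receptor inhibitor gene errfi1a differed less. The level of errfi1a was 32.5, 92.5 and 42.1 CPM in oPrl replicates 1, 2 and 3, against 466, 403 and 409.9 CPM in the vehicle fish (log2 fold change -2.93, SE 0.39). That of sgk1 was 71.0, 202 and 81.1 CPM, against 601, 516 and 485 CPM (log2 fold change -2.18, SE 0.40). In both genes oPrl replicate 2 again stood above the other oPrl fish, and the vehicle fish were close to one another, with ranges of 1.16-fold for errfi1a and 1.24-fold for sgk1. In all 5 genes every oPrl fish lay below every vehicle fish. The same held for 12.7% of the 24878 genes tested, but since the genes were chosen on this contrast nothing is read from their count. The narrowest gap was in sgk1, where the lowest vehicle fish was 2.40 times the highest oPrl fish, and the widest was in fkbp5, at 13.3 times.

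**Figure D1:**
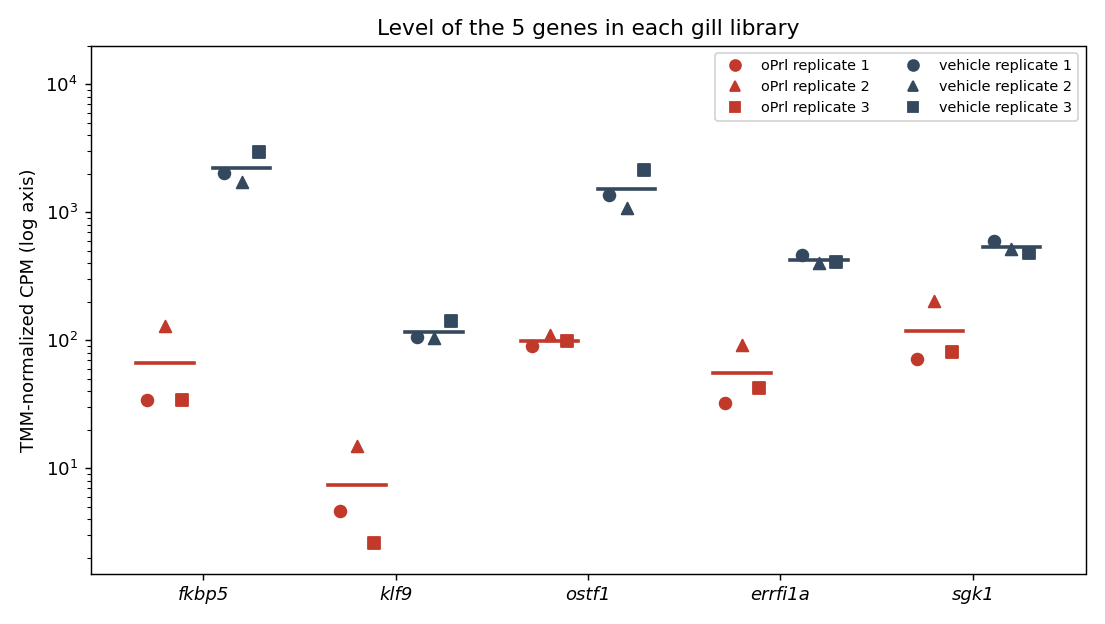
Level of each gene in the 6 gill libraries as TMM-normalized CPM on a log axis, oPrl fish in red and vehicle fish in dark blue, with the mean of each group as a bar and the replicate number as the symbol. The groups do not overlap in any of the 5 genes, and oPrl replicate 2 (triangle) lies well above the other oPrl fish in fkbp5, klf9, errfi1a and sgk1 but not in ostf1.

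Seen fish by fish, the 5 genes separated into 4 in which oPrl replicate 2 stood apart and 1, ostf1, in which it did not. Relative to the vehicle mean, oPrl replicates 1, 2 and 3 retained 1.53%, 5.82% and 1.53% of the level of fkbp5, and 3.95%, 12.7% and 2.23% of that of klf9. The share retained was 7.63%, 21.7% and 9.89% for errfi1a, and 13.3%, 37.8% and 15.2% for sgk1. For ostf1 it was 5.94%, 7.16% and 6.42%, so that replicate 2 differed little from the others. On the log2 scale, oPrl replicate 2 exceeded the mean of replicates 1 and 3 by 2.07 for klf9, 1.93 for fkbp5, 1.41 for sgk1 and 1.32 for errfi1a, and by 0.21 for ostf1. For sgk1 this placed replicate 2 midway, at 50.3% of the log2 distance between the other oPrl fish and the vehicle mean. The corresponding position was 41.2% for klf9, 37.5% for errfi1a, 32.2% for fkbp5 and 5.42% for ostf1. The order of the genes by difference was the same in replicates 1 and 3, namely fkbp5, klf9, ostf1, errfi1a and sgk1, whereas in replicate 2 ostf1 came before klf9.

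**Figure D2:**
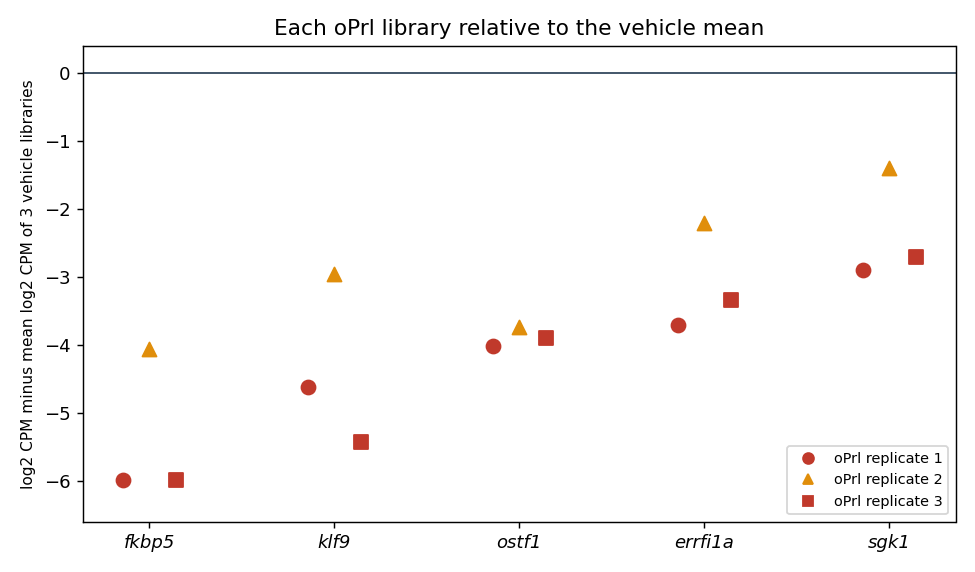
Log2 CPM of each oPrl fish minus the mean log2 CPM of the 3 vehicle fish (line at 0), with oPrl replicate 2 in orange and replicates 1 and 3 in red. Replicate 2 lies nearer to the vehicle mean by 1.32 to 2.07 in 4 genes, while the 3 fish nearly coincide in ostf1.

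How unusual these deviations were was read against the 17629 genes whose mean reached 1 CPM. Replicate 2 was at least 1.5-fold above both other oPrl fish in 11% of these genes and in 4 of the 5 genes described here, and it was simply the highest oPrl fish in 46.7% of these genes and in all 5. It was at least 1.5-fold below both in 10.7% of these genes and in none of the 5. The deviation of klf9 was larger than that of 98.8% of the genes, and the corresponding values were 98.6% for fkbp5, 97.1% for sgk1, 96.7% for errfi1a and 64.2% for ostf1. The median deviation over all genes was 0.06, and the central 95% reached from -1.59 to 1.5. These are positions of genes in 1 library, with no test, and the deviation of replicate 2 was known when the genes were chosen. In the other libraries the share of genes at least 1.5-fold above both group mates was 3.56% for oPrl replicate 1 and 3.13% for oPrl replicate 3, and it was 2.54%, 4.45% and 7.57% for vehicle replicates 1, 2 and 3. Of the 5 genes, 1 met this measure there, ostf1 in vehicle replicate 3. The gene klf9 was also low in oPrl replicate 3, at -1.64 on the log2 scale, where the central 95% of genes began at -1.005. That deviation is taken against a mean that includes the high replicate 2, and replicate 1 alone was 1.77 times replicate 3. In the vehicle group, replicate 3 was highest for ostf1 (1.76-fold the mean of the other vehicle fish on the log scale), fkbp5 (1.57-fold) and klf9 (1.34-fold), but not for errfi1a (0.946-fold) or sgk1 (0.871-fold).

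**Figure D3:**
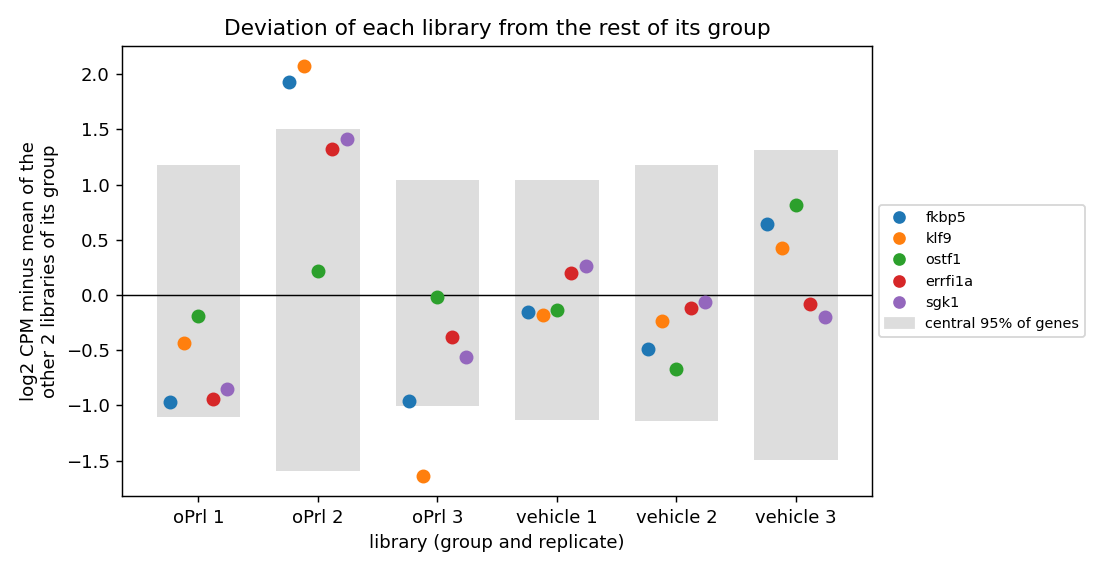
Log2 CPM in each library minus the mean of the other 2 libraries of its group, for the 5 genes, with the central 95% of the 17629 genes of at least 1 CPM as a grey bar. In oPrl replicate 2, fkbp5 and klf9 lie above the bar and sgk1 and errfi1a near its upper end, while ostf1 lies near 0 in every oPrl library.

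Markers of several cell types differed in oPrl replicate 2. The summed level of 11 epithelial markers was 7355, 11253 and 7468 CPM in oPrl replicates 1, 2 and 3, against 12384 to 13414 CPM in vehicle fish. The sum is weighted to the abundant markers, and the 11 did not share a direction between treatments. Of the 11, 6 had a log2 fold change below 0, and the median was -0.12. Every oPrl fish lay below every vehicle fish in 3 of them and above in 2, which held for 12.7% and 16.3% of all genes tested. Replicate 2 was the highest oPrl fish for 9 of the 11, by a median of 0.39 on the log2 scale, with krt5 at 5037 CPM against 2970 and 3199 CPM. The 11 ionocyte markers summed to 3646 to 4316 CPM in oPrl fish and 4842 to 6759 CPM in vehicle fish, and replicate 2 was the highest oPrl fish for 3 of them, with a median deviation of -0.54. The 8 leukocyte markers tested summed to 1788 to 2021 CPM with oPrl and 1863 to 2327 CPM with vehicle. Replicate 2 was the highest oPrl fish for 4 of the 8, with a median deviation of 0.14. The neutrophil marker mpx, in contrast to that median, was 30.1 CPM in replicate 2 against 126 and 116 CPM in the other oPrl fish. The 6 erythrocyte markers summed to 879, 369.9 and 482 CPM in oPrl replicates 1, 2 and 3, against 350.2 to 671 CPM in vehicle fish, and the 7 endothelial markers to 277, 201 and 254 CPM, against 223 to 294 CPM. The 8 skeletal muscle markers summed to 42.3, 37.9 and 75.8 CPM, against 2.10 to 218 CPM. Replicate 2 thus had the lowest oPrl sum for these 3 cell types, with median deviations of -0.48, -0.25 and -0.61 on the log2 scale. Its erythrocyte and skeletal muscle sums lay within the range of the vehicle fish. Of the 8 skeletal muscle markers, 0 reached 1 CPM in every library. The leukocyte marker LYZ was under the filter on low counts and was not tested, and no summed level was 0. The part of these cell types in the levels of the 5 genes was not tested.

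Among themselves, errfi1a and sgk1 varied most alike. The root-mean-square difference of their log2 CPM, each centred on its own mean over 6 libraries, was 0.38, the smallest of the 10 pairs, and it was largest between fkbp5 and sgk1, at 1.54. The ratio of errfi1a to sgk1 varied 1.13-fold over the oPrl fish and 1.09-fold over the vehicle fish. The ratio of klf9 to ostf1, in contrast, varied 5.13-fold over the oPrl fish, and that of fkbp5 to ostf1 3.41-fold.

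The genes with the most similar profiles were sought by the same measure among 12219 others that had a symbol and whose mean reached 1 CPM. They were cebpd (0.12) and plekhn1 (0.15) for sgk1, and crema (0.16) and stk35 (0.18) for errfi1a. For ostf1 the nearest was tulp1b (0.23), which had only 7, 8 and 4 counts in oPrl replicates 1, 2 and 3. Its profile there thus rests on few counts and on the CPM added before taking logs. For fkbp5 they were ddit4 (0.35), an inhibitor of mTOR signalling, and pnp5a (0.51), and for klf9 mid1ip1l (0.53) and socs3 (0.56), a suppressor of cytokine signalling. The level of cebpd, a CCAAT/enhancer-binding transcription factor gene, was 219, 743 and 244 CPM in oPrl replicates 1, 2 and 3, against 1920.4, 1674 and 1824 CPM in the vehicle fish. The level of crema, a modulator of cAMP-responsive transcription, was 16.1, 47.2 and 20.3 CPM, against 245, 178 and 262 CPM. Replicate 2 was thus the highest oPrl fish for the neighbours of sgk1 and errfi1a as well. All of these were picked for their likeness, and it is a description over 6 libraries that fall into the treatment groups.

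The closest relatives of the 5 genes were examined next, in the fit over all 24878 genes. For errfi1a the number of relatives matched by symbol was 0. A gene was called where the quasi-likelihood test of edgeR gave a Benjamini-Hochberg adjusted p below 0.01 and the log2 fold change lay beyond 1 in either direction. This took 0.687% of genes as lower and 0.715% as higher with oPrl, compared with 3.5% and 3.66% of the 20897 genes to which DESeq2 gave an adjusted p, under the same thresholds. None of the 17 other FKBP-domain genes was called by edgeR or DESeq2, and 4 had an unadjusted p under 0.05, as did 21.7% of all genes tested. Their median log2 fold change was 0.12, compared with 0.02 for all genes. Another Hsp90 co-chaperone gene of the family, fkbp4, had 104, 106 and 87.3 CPM with oPrl, against 77.6, 75.2 and 69.5 CPM with vehicle (log2 fold change 0.42, SE 0.14, adjusted p = 0.144). Every oPrl fish lay above every vehicle fish in fkbp4, which held for 16.3% of all genes tested. The log2 fold changes of the abundant relatives aip and fkbp10b were 0.12 and 0.75 (adjusted p = 0.707 and 0.109).

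Neither of the SGK relatives was called, by edgeR or by DESeq2. For sgk3 the levels were 113, 175 and 122 CPM with oPrl, against 155, 153 and 166 CPM with vehicle, and the groups overlapped (log2 fold change -0.21, SE 0.19, adjusted p = 0.585). For sgk2a they were 33.1, 24.2 and 27.8 CPM, against 49.2, 34.5 and 42.4 CPM (log2 fold change -0.57, SE 0.20, adjusted p = 0.151). Of these 2 genes, 1, sgk2a, had an unadjusted p under 0.05. Among the relatives of ostf1, TSC22D2 had 30.3, 37.4 and 30.5 CPM with oPrl, against 102, 90.5 and 61.9 CPM with vehicle. The difference was -1.38 (SE 0.22) on the log2 scale, at an adjusted p of 0.0149, which edgeR did not call and DESeq2 did, and it was past the edgeR threshold without vehicle replicate 3 (adjusted p = 0.00993). TSC22D1 had a log2 fold change of 0.35 (adjusted p = 0.492).

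The Krüppel-like factors are the family of klf9. Of 16 relatives of klf9, edgeR called 2 lower, which is 12.5%, compared with 0.687% of all genes. None was called higher, 12 had a log2 fold change below 0, and the median was -0.40. This list was drawn up with earlier results of these fish known, so the share is not independent evidence. All 171 genes called lower had a mean of at least 1 CPM. So did 15 of the 16 relatives, but only 17629 of the 24878 genes tested. The level of klf4, a regulator of epithelial differentiation, fell to 7.84, 14.8 and 11.9 CPM with oPrl, against 219.7, 155 and 84.1 CPM with vehicle. The difference was -3.73 (SE 0.41) on the log2 scale, at an adjusted p of 0.00484, close in size to that of klf9. The level of klf6a fell to 71.9, 102 and 75.8 CPM, against 228, 203 and 226 CPM (log2 fold change -1.40, SE 0.18, adjusted p = 0.00744). The most abundant relatives not called, klf5l, klf11 and klf17, had log2 fold changes of -0.74, -0.34 and -0.46 (adjusted p = 0.434, 0.387 and 0.474). The relatives klf13 and KLF15 (ENSONIG00000029616), named after their values were seen, were farther below 0 than klf6a. They missed the edgeR threshold, at log2 fold changes of -2.12 and -1.85 (adjusted p = 0.0111 for each), and DESeq2 called both lower. Each library other than vehicle replicate 3 was needed for the call of klf4, with adjusted p of 0.0120 to 0.0307 without one of them, and each other than oPrl replicate 2 for that of klf6a, with adjusted p of 0.0168 to 0.0449. The count of KLF relatives called lower was 0 without oPrl replicate 1, oPrl replicate 3, vehicle replicate 1 or vehicle replicate 2. Without vehicle replicate 1 edgeR called 0 genes in all, at a smallest adjusted p of 0.0123 and with 4154 genes at an unadjusted p under 0.05, and without oPrl replicate 3 it called 5.

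**Figure D4:**
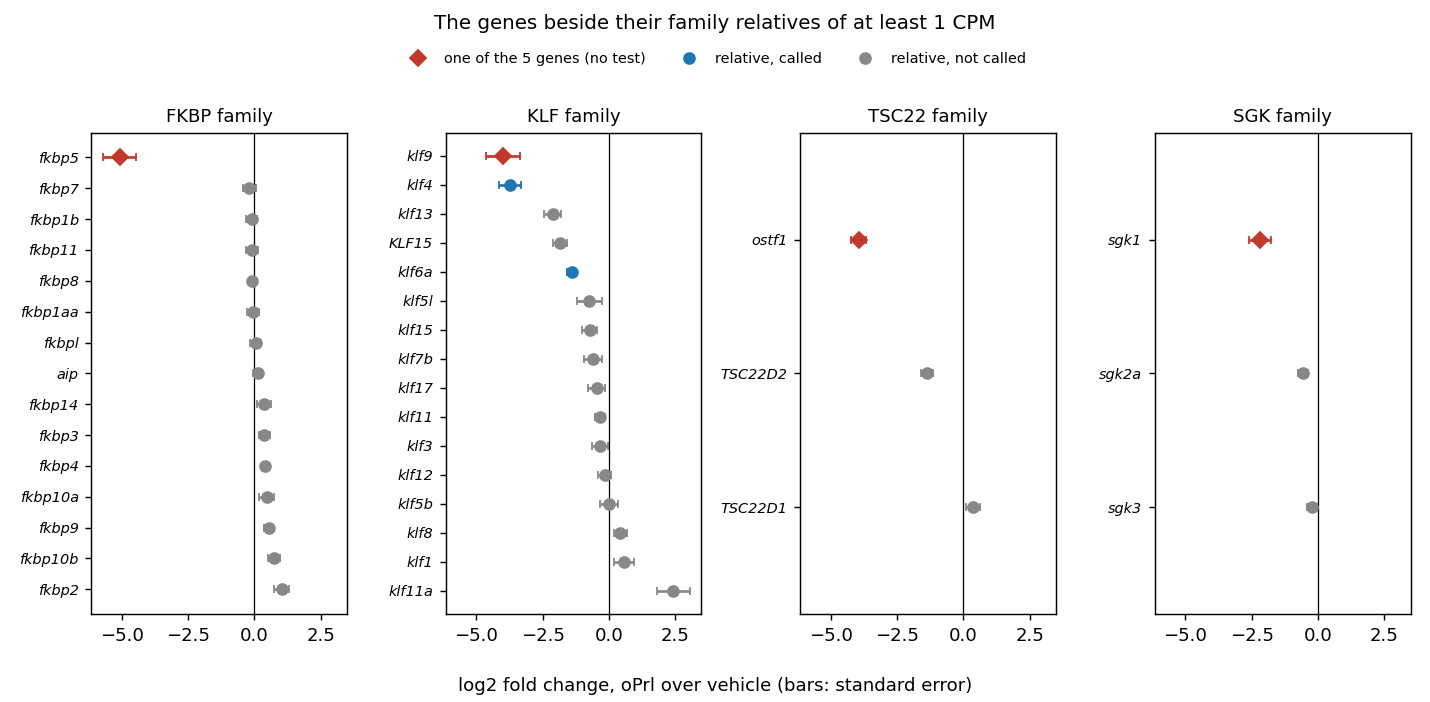
Log2 fold change of oPrl over vehicle with its standard error for fkbp5, klf9, ostf1 and sgk1 (red diamonds, no test) and their family relatives of at least 1 CPM (circles, blue where called by edgeR). Relatives of sgk1 lie at -0.57 and -0.21 and those of fkbp5 at no more than 1.03, whereas klf4 at -3.73 and klf6a at -1.40 are called lower beside klf9, and TSC22D2 lies at -1.38.

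The proteins that act on or with the products of these genes were considered as 3 lists. The lists were drawn up with earlier results of these fish known, so their shares are not independent evidence. In a list of 21 or 24 genes, 1 gene called is the smallest share above 0. Of 24 genes for the corticosteroid receptors, their chaperones and coregulators, 0 were called by edgeR in either direction, 9 had an unadjusted p under 0.05, or 37.5% compared with 21.7% of all genes, and DESeq2 called 1, hspa8b, lower. The median log2 fold change was 0.09. The abundant chaperones hsp90ab1 and HSPA8 had log2 fold changes of -0.10 and -0.43 (adjusted p = 0.716 and 0.103), and st13 had 0.46 (adjusted p = 0.125). The receptor genes themselves, named for their role, were NR3C1 (ENSONIG00000008483), nr3c1 (ENSONIG00000017907) and nr3c2, with log2 fold changes of -0.04, 0.49 and -0.49 (adjusted p = 0.967, 0.443 and 0.612).

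Of 21 genes for kinases upstream of Sgk1 and for its known substrates and targets, edgeR called 1 higher and none lower. That is 4.76% higher, compared with 0.715% of all genes. DESeq2 called the same gene higher and called 2, wnk4b and foxo1a, lower. The median log2 fold change was -0.02. The gene that rose was ndrg1a, whose mammalian protein is a substrate of SGK1. Only its RNA was counted here, and the activity of Sgk1 was not measured. Its level rose to 572 to 1006 CPM with oPrl, against 95.7 to 101 CPM with vehicle (log2 fold change 3.03, SE 0.23, adjusted p = 0.00204). It stayed past the threshold without oPrl replicate 1, oPrl replicate 2 or vehicle replicate 3, but not without oPrl replicate 3, vehicle replicate 1 or vehicle replicate 2 (adjusted p = 0.0107, 0.0179 and 0.0119). The abundant genes not called were foxo1a, slc12a2 and pdpk1b, the activating kinase of Sgk1, with log2 fold changes of -1.01, -0.43 and -0.08 (adjusted p = 0.071, 0.642 and 0.786).

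Errfi1 acts on the ErbB receptors. Of 24 genes for these receptors, their ligands and their signalling partners, edgeR called 1 lower and none higher. That is 4.17% lower, compared with 0.687% of all genes. The median log2 fold change was -0.26. The gene that fell was nrg2a, a neuregulin ligand of ErbB receptors, at 23.96, 25.1 and 21.3 CPM with oPrl, against 70.7, 59.4 and 54.7 CPM with vehicle (log2 fold change -1.39, SE 0.16, adjusted p = 0.00619). It lost the call whichever library was left out, at adjusted p of 0.0114 to 0.0384. Of all 349 genes called in the full fit, 0 to 153 kept the call with 1 library left out. The abundant receptor genes erbb2 and erbb3a and the adaptor gene grb2 had log2 fold changes of -0.22, -0.39 and 0.03 (adjusted p = 0.418, 0.199 and 0.93).

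Other targets of the glucocorticoid receptor known from mammals were taken as the last list, with the 5 genes left out. Of 40 such genes tested, edgeR called 5 lower and none higher, which is 12.5% lower, compared with 0.687% of all genes. DESeq2 called 13 of them lower, and 3.5% of the 20897 genes to which it gave an adjusted p. The median log2 fold change was -0.90, compared with 0.02 for all genes, and 34 of 40 values were below 0. The list was drawn up with earlier results of these fish known, so it is not independent evidence of their direction. The level of ddit4 fell to 5.00, 13.6 and 4.78 CPM with oPrl, against 404, 327 and 621 CPM with vehicle (log2 fold change -5.85, SE 0.54, adjusted p = 0.00322). Those of per1b, a repressor of the circadian clock, of lpin1, an enzyme of lipid synthesis, and of pik3r1, a regulatory subunit of phosphoinositide 3-kinase, fell by 2.09, 2.18 and 2.03 on the log2 scale (adjusted p = 0.00241, 0.00241 and 0.00132). The stress gene GADD45B (ENSONIG00000007306) fell by 3.30 (adjusted p = 0.00322). The abundant genes not called were cebpd, cebpb and anxa1a, with log2 fold changes of -2.17, -1.73 and -0.93 (adjusted p = 0.0391, 0.303 and 0.0179). Without oPrl replicate 2 the count of targets called lower was 8, and both cebpd and cebpb were then past the threshold, at log2 fold changes of -2.96 and -3.64 (adjusted p = 0.00202 and 0.00645). It was 0 without oPrl replicate 1, oPrl replicate 3 or vehicle replicate 1, and leaving out vehicle replicate 2 or 3 gave 1 and 4. Over all genes edgeR called 139 lower without oPrl replicate 2, compared with 171 in the full fit. Without oPrl replicate 1, oPrl replicate 3 and vehicle replicate 1 it called 15, 1 and 0 lower. Without vehicle replicates 2 and 3 it called 17 and 77. With 1 library left out, ddit4 and GADD45B were past the threshold only where that was oPrl replicate 2, and otherwise their adjusted p reached 0.0213 and 0.0237. For lpin1 and per1b this held where it was oPrl replicate 2 or vehicle replicate 3, and for pik3r1 where it was any of oPrl replicate 2, vehicle replicate 2 and vehicle replicate 3.

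In oPrl replicate 2 a minority of this list stood well above both other oPrl fish, as 4 of the 5 genes did. Of the 38 listed genes of at least 1 CPM, 15 were at least 1.5-fold above both other oPrl fish in replicate 2. That is 39.5%, compared with 11% of all genes. At least 1.5-fold below both were 4, or 10.5%, compared with 10.7% of all genes. The list was drawn up with earlier results of these fish known, and the deviation of replicate 2 was known before. These shares describe 1 library, with no test, and are not independent evidence of the deviation. The level of cebpb was 966 CPM in replicate 2, against 87.0 and 122.7 CPM in replicates 1 and 3, and so reached the range of the vehicle fish, at 899 to 1738 CPM. In contrast, the genes per1b, pik3r1 and lpin1 deviated by -0.06, 0.17 and -0.24 on the log2 scale, and like ostf1 they were lower with oPrl to nearly the same degree in all 3 fish. Levels of pdk4, named after its values were seen, went the other way, at 27.6 CPM in replicate 2 against 89.5 and 96.0 CPM in replicates 1 and 3. The cell type markers that differ in this library are given above, and their part in these levels was not tested.

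**Figure D5:**
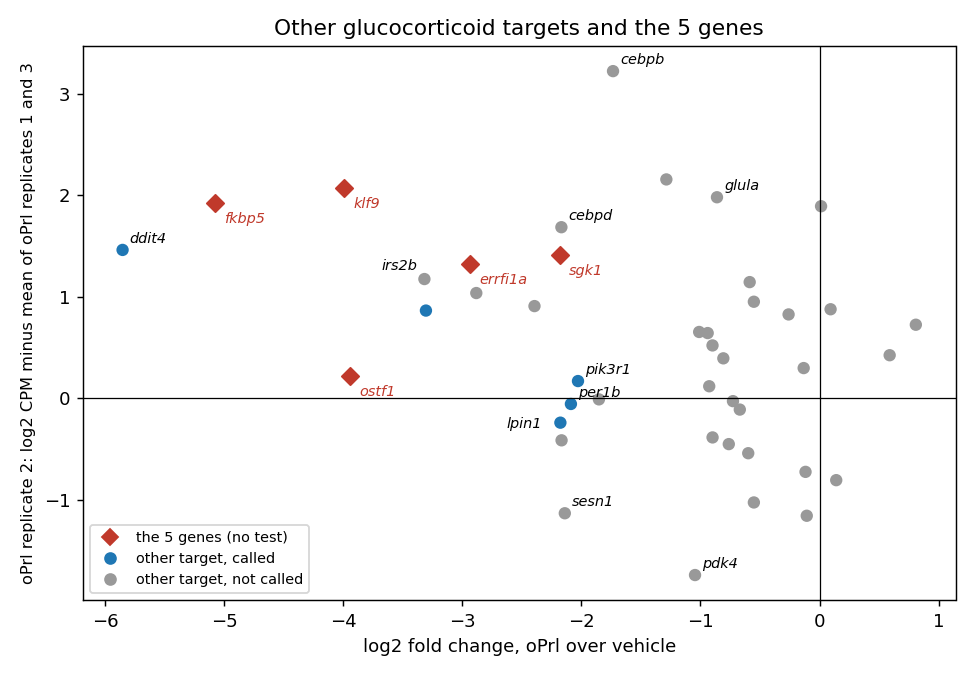
Log2 fold change of oPrl over vehicle (horizontal) against the log2 deviation of oPrl replicate 2 from oPrl replicates 1 and 3 (vertical) for the 5 genes (red diamonds, no test) and 38 other glucocorticoid targets of at least 1 CPM (circles, blue where called by edgeR). The genes fkbp5, klf9, errfi1a, sgk1, ddit4 and cebpd lie left and high, while ostf1, per1b, pik3r1 and lpin1 lie left with deviations between -0.24 and 0.21.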

How the data were processed

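The authors trimmed reads with Trimmomatic 0.36, mapped them with STAR 2.5.2b to the Ensembl genome of Nile tilapia, a related species, and counted unique reads over genes with featureCounts. They deposited these counts without normalization. Genome build, annotation release and strand setting were not given in the sources used here. Therefore overlapping or antisense genes cannot be told apart. A row without a gene ID, with 0.0901% to 0.135% of the counts of a library, was left out. Counts were compared with edgeR 4.0.16 in R 4.3.3 (TMM, quasi-likelihood test) over the 24878 genes with at least 10 counts in all, and with DESeq2 1.42.0, the tool of the study, as an alternative. Standard errors were derived from edgeR's output, as the absolute log2 fold change divided by the square root of the quasi-likelihood F statistic. Log2 CPM carries an added 0.1 CPM. Libraries of 1 treatment differed by more than sampling noise (chi-square divided by its degrees of freedom, 26.3 to 98.6), and no library was a repeat.

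The 5 genes and all lists were chosen with earlier results of these data known. Lists were matched to gene symbols, with the letter or number that marks fish duplicates. Genes are named as called members of a list, as its 3 most abundant genes not called, or as the 2 nearest in profile to each of the 5 genes, except where said otherwise and for 1 gene that is not reported here. Alternatives were DESeq2, other scalings, filters and thresholds, the replicate number as a block and leaving out each library. Promoter motifs and other sequences were not analysed here.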

Additional observations from a re-analysis of the deposited data

How the results depend on the processing

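The log2 fold changes of the 5 genes kept their sign under every alternative. With each library left out they ranged from -6.03 to -4.77 for fkbp5, -5.02 to -3.58 for klf9, -4.18 to -3.62 for ostf1, -3.51 to -2.66 for errfi1a and -2.81 to -1.92 for sgk1, in each case but ostf1 farthest from 0 without oPrl replicate 2. The deviation of oPrl replicate 2 ranged from 1.67 to 2.47 for klf9, 1.13 to 1.51 for errfi1a, 1.32 to 1.51 for sgk1, 1.92 to 1.93 for fkbp5 and 0.16 to 0.27 for ostf1 when set against a single oPrl fish. It was 1.22 for klf9 with 5 CPM added and 1.16 for errfi1a under library totals. That scaling moved the median of all genes to 0.19, and under it ostf1 deviated by 0.06.

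Calls were less stable. Lower and higher genes numbered 171 and 178 in edgeR, 731 and 765 in DESeq2, and 519 and 628 at an adjusted p under 0.05. Library totals gave 358 higher genes, with 29.1% of calls lower, compared with 49%. With a library left out, 0 to 139 were lower and 0 to 76 higher. DESeq2 called 4 KLF relatives lower and 1 higher, 1 TSC22 relative, 1 receptor or chaperone gene and 2 Sgk1 partners lower, and 13 other glucocorticoid targets lower. Without the filter on low counts, 4 KLF relatives and 9 targets were lower, and at an adjusted p under 0.05, 4 and 12, with 1 TSC22 relative. With a library left out, 0 to 2 KLF relatives were lower and 0 to 1 higher, 0 to 1 TSC22 relatives were lower, 0 to 1 Sgk1 partners higher, 0 ErbB genes lower and 0 to 8 targets lower. Samples of equal replicate number did not deviate together (correlations of -0.13, -0.05 and 0.01), and with the replicate number as a block edgeR called 17 lower and 13 higher genes, 0 KLF relatives, 0 ErbB genes and 0 targets. The cause of these changes was not tested.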

Other observations

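Among the Krüppel-like factors, klf11a, named here after its values were seen, was the counterpart of klf9 in oPrl replicate 2. Its level was 24.8, 3.90 and 23.1 CPM in oPrl replicates 1, 2 and 3, against 3.16, 3.01 and 3.46 CPM in vehicle fish, so that replicate 2 was near the vehicle level. With edgeR klf11a missed the threshold, at a log2 fold change of 2.43 (adjusted p = 0.0682), whereas DESeq2 called it (adjusted p = 0.000765). Without oPrl replicate 2 edgeR gave 2.90 (adjusted p = 0.00228).

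In the vehicle group, replicate 3 had the highest levels of fkbp5, klf9 and ostf1 and the lowest levels of the receptor genes. NR3C1 was 25.7 CPM there, against 75.2 and 72.3 CPM in vehicle replicates 1 and 2, nr3c1 was 19.0 CPM against 45.4 and 42.6 CPM, and nr3c2 was 4.73 CPM against 13.3 and 14.4 CPM. The gene sgk1 was also lowest in vehicle replicate 3, at 485 CPM against 601 and 516 CPM. The level of errfi1a, 409.9 CPM, lay between those of the other vehicle fish. This library was the shallowest, at 21643589 counts on genes. In 7.57% of the genes of at least 1 CPM it exceeded both other vehicle fish by 1.5-fold or more. The share was 2.54% and 4.45% for vehicle replicates 1 and 2. A relation between the receptor genes and the 5 genes was not tested.

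Of the epithelial markers, krt18a.1 deviated most in oPrl replicate 2, at 756 CPM against 182 and 172 CPM in oPrl replicates 1 and 3 and 176 to 283 CPM in vehicle fish.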
